A study of Mus musculus with 6 samples.

Results

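Interferon-stimulated genes are the genes that cells turn on when an interferon binds its receptor. The set described here was a list of 39 such genes, taken from a listing that was made with the WT and SIRT7 KO values of these data in view, and 38 of them had a column among the 16623 genes of the table. Mx2, a dynamin-like antiviral GTPase, had none. The members were chosen by their CP10K values in the contrast of WT and SIRT7 KO cells of each class, so that contrast is given for the members as a description. Members called by the fit over all genes are counted beside the calls among all genes, and nothing is read from those counts. The other genes of the interferon pathway were listed separately and were tested.

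The livers came from 3 WT mice and 3 SIRT7 KO mice, which lack the NAD+-dependent deacylase SIRT7 in the whole body, all aged 5 to 6 months. SIRT7 KO mice develop a fatty and inflamed liver without a special diet, which makes them one genetic model of nonalcoholic fatty liver disease and not a model of interferon exposure or infection. Hepatocytes and nonparenchymal cells were separated by collagenase perfusion and then mixed in equal numbers for 10x Genomics 3′ single-cell RNA-seq, so the shares of the cell types in a library do not mirror the liver. All values below are in the order of the mouse numbers, WT first.

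Type I interferons bind Ifnar1 and Ifnar2, and the kinases Jak1 and Tyk2 then activate transcription factors, among them Stat2, which joins Irf9 in a complex on the interferon-stimulated response element of target genes. Interferon-γ signals through Ifngr1 and acts on gamma-activated sites. In the liver, Kupffer cells, which are the resident macrophages, endothelial cells, lymphocytes and hepatocytes all carry these receptors.

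The libraries held 11610 cells and between 2511947 and 11069411 unique molecular identifiers (UMIs) per mouse. SIRT7 KO mouse 1 stood apart in size, with 5609 cells, against 552 to 2179 in the other mice, and had the lowest median depth of its cells (1630 UMIs, against 1902.5 to 3875). The libraries shared 13 cell barcodes. Sirt7 itself was at 0.718, 0.512 and 0.546 CP10K (UMIs per 10000 UMIs of a cell, averaged over cells) in WT and at 0.10, 0.0814 and 0.139 CP10K in SIRT7 KO mice, and the groups did not overlap (two-sided exact permutation test, p = 0.1, the smallest that 3 against 3 mice allow).

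Clustering gave 10 clusters, and 8 classes were compared. Macrophage-like cells were led by the Kupffer cell genes C1qa, Clec4f and Cd5l. A cluster led by Prss34, Klk1, Cd209a and Siglech mixed genes of basophils, monocytes, dendritic cells and plasmacytoid dendritic cells and is called the mixed myeloid cluster. Hepatocyte cluster 1 was led by Hbb-bs, Mup17 and Hba-a1. The red blood cell genes summed to 104 CP10K there in WT mouse 1 and to at most 6.28 CP10K in the other mice. Hepatocyte cluster 2 was led by Slc22a30, Mlxipl and G6pc. Endothelial-like, T and NK-like, B-like and plasma B-like cells completed the classes. A mouse entered a class only with 20 cells or more in it, which removed SIRT7 KO mouse 3 from the endothelial-like, B-like and plasma B-like cells, WT mouse 2 from the B-like cells and WT mouse 1 from the plasma B-like cells.

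The promoters of 29 of the 39 members were in the RefSeq table for GRCm38.p6, as 250 bases before the transcription start and 50 after it. The core of the response element, GAAANNGAAA on either strand, occurred in 19 of the 29 (65.5%), against 3.99% of 27025 mouse genes. The gamma-activated site TTCNNNGAA, which reads the same on both strands, occurred in 6 of the 29 (20.7%), against 9.55% of all genes. The 250 bases before the start are shown, in the direction of the gene, for 5 members of different roles to which the results return, with motif matches in capitals.

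Isg15, chr4:156200819-156201068, minus strand: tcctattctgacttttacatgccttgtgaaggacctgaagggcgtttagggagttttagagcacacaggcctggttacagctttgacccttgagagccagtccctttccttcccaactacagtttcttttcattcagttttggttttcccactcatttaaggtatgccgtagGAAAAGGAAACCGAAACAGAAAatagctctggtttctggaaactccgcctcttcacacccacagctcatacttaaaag
Ifit3, chr19:34583279-34583528, plus strand: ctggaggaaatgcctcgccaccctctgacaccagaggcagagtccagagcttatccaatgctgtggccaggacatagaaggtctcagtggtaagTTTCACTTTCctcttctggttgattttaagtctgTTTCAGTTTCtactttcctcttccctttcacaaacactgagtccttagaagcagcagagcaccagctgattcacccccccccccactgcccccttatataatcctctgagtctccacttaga
Rsad2, chr12:26456453-26456702, minus strand: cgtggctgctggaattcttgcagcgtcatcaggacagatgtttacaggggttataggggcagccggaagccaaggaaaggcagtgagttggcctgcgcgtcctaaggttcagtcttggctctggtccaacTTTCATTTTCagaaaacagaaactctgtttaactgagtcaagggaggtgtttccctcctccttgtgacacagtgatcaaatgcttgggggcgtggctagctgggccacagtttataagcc
Bst2, chr8:71537473-71537722, minus strand: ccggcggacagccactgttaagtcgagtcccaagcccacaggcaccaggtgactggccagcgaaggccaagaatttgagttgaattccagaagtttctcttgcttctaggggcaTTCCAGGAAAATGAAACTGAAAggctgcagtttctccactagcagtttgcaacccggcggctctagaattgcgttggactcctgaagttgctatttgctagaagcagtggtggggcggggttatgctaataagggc
Igtp, chr11:58199306-58199555, plus strand: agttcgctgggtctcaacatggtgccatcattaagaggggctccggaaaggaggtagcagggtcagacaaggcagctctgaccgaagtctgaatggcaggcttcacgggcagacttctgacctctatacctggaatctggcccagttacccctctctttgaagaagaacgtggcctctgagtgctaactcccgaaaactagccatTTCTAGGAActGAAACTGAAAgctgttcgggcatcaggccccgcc

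In Isg15, 3 matches to the response element core overlapped between bases -78 and -57 from the start. In Bst2, a gamma-activated site from base -136 to -128 overlapped the first of a pair of response element cores that ran from base -130 to -115. Igtp carried a gamma-activated site from base -45 to -37 and a response element core from base -34 to -25. Ifit3 held cores at bases -156 to -147 and -122 to -113, and Rsad2 held 1 core at bases -120 to -111. The matches describe letters in these windows and not bound sites. Of the 6 guanylate-binding and immunity-related GTPases, 5 held the core (Gbp2, Gbp3, Gbp7, Igtp and Irgm1).

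Members lay on 13 mouse chromosomes. The IFIT genes shared chromosome 19, the oligoadenylate synthetase family chromosome 5, and the guanylate-binding members chromosome 3. On chromosome 11, 7 members (Dhx58, Ifi47, Igtp, Irgm1, Ifi35, Xaf1 and Slfn5) shared a chromosome with Sirt7 (120618371 to 120625014), and the nearest of them, Ifi35, lay 19.2 Mb away. Exons of Ifi47 overlapped those of Olfr56 on the same strand, likewise Igtp with Irgm2 and Irf9 with Rnf31, and Ifi27 lies inside the annotated span of Ifi27l2a. The members of the IFIT, GBP and OAS families resemble each other closely, so the split of reads within each of these families and pairs is uncertain.

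In WT liver the class with the highest mean differed between the members. Of the 38 members, 16 had their highest WT mean in macrophage-like cells, among them Irf7, Ifi27l2a, Oas1a, Oas2, Oas3, Rsad2, Ifi44, Trim30a and Parp14. Endothelial-like cells held the highest WT mean of 9 members, including Bst2, Ifit2, Usp18, Xaf1 and Slfn5, and T and NK-like cells of 6, which were Isg15, Zbp1, Gbp7, Ifi47, Igtp and Ifi27. The mixed myeloid cluster was highest for Ifit3, Mx1, Ifi35 and Phf11b, hepatocyte cluster 1 for Ifit1 and Irgm1, and hepatocyte cluster 2 for Stat2. The place of Ifit1 rested on WT mouse 3, with 1.05 CP10K against 0.105 and 0.157 CP10K in WT mice 1 and 2, and Irgm1 had WT means of 0.588 CP10K there and 0.559 CP10K in endothelial-like cells. Other places were near ties. Xaf1 had a WT mean of 0.533 CP10K in both endothelial-like and macrophage-like cells. Isg15 had 0.561 CP10K in T and NK-like cells and 0.557 CP10K in the mixed myeloid cluster. Ifit3 had 0.260 CP10K in that cluster and 0.255 CP10K in macrophage-like cells. Usp18 in endothelial-like cells rested on 1, 1 and 2 UMIs in the WT mice. The spread between classes was wide for Ifi27l2a, with a WT mean of 10.9 CP10K in macrophage-like cells and 0.240 CP10K in hepatocyte cluster 2.

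The mean over the members of log2(CP10K + 0.05), called the score, was higher on average in SIRT7 KO than in WT mice in all 8 classes, and the mice of the SIRT7 KO group lay apart from each other. In macrophage-like cells the score was -1.26, -0.84 and -0.76 in WT and -0.92, 0.30 and 0.15 in SIRT7 KO mice. SIRT7 KO mouse 1 lay within the WT range, and mice 2 and 3 lay above it. The difference of the means was 0.80, and it was 1.18 without SIRT7 KO mouse 1. In the mixed myeloid cluster the score was -1.44, -1.74 and -1.40 in WT and -1.59, -0.18 and -0.28 in SIRT7 KO mice, again with mouse 1 within the WT range and mice 2 and 3 above it. This cluster had 2 larger parts when the cells were divided more finely. A part led by Prss34, Xcr1 and Cd209a scored -2.34, -2.37 and -2.29 in WT and -1.99, -0.81 and -1.10 in SIRT7 KO mice. A part led by F13a1, with monocyte genes, held 49.1%, 41.8% and 29.4% of the cluster's WT cells and 32.4%, 35.98% and 48.98% of its SIRT7 KO cells, and scored -1.16, -1.74 and -0.69 against -1.29, 0.35 and 0.15. SIRT7 KO mice 2 and 3 were above every WT mouse in both parts, and mouse 1 in the first. In T and NK-like cells it was -1.61, -1.78 and -1.41 against -1.74, -0.70 and -1.45, so only SIRT7 KO mouse 2 passed the WT range, and the difference of 0.31 shrank to 0.01 without that mouse.

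In hepatocyte cluster 1 the score was -2.72, -2.55 and -2.55 in WT and -2.61, -1.81 and -2.09 in SIRT7 KO mice. In hepatocyte cluster 2 it was -2.78, -2.70 and -2.31 against -2.22, -1.67 and -1.53, and there the genotypes did not overlap. Endothelial-like cells did not overlap either, with -1.74, -1.80 and -1.61 in WT and -1.23 and 0.09 in SIRT7 KO mice 1 and 2. Their difference of 1.15 was the largest of the 8 classes, with SIRT7 KO mouse 2 far above mouse 1, and it fell to 0.49 without mouse 2. RNA of leukocytes varied in these cells, where 8 leukocyte genes summed to 11.03, 7.23 and 37.5 CP10K in WT and to 33.5 and 32.1 CP10K in SIRT7 KO mice, and its part in the result was not tested. B-like cells had -2.79 and -2.69 against -2.18 and -1.62, and plasma B-like cells -3.25 and -2.80 against -2.88 and -2.34, each from a pair of mice per genotype. The B-like values came from 24 and 22 cells in WT and 68 and 25 in SIRT7 KO mice, with 19 and 19 members at 0 against 11 and 12. Plasma B-like cells numbered 20 and 130 against 130 and 135, with 18 and 8 members at 0 against 9 and 4. Members at 0 enter the score at its floor, and the part of cell number in these differences was not tested.

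**Figure D1:**
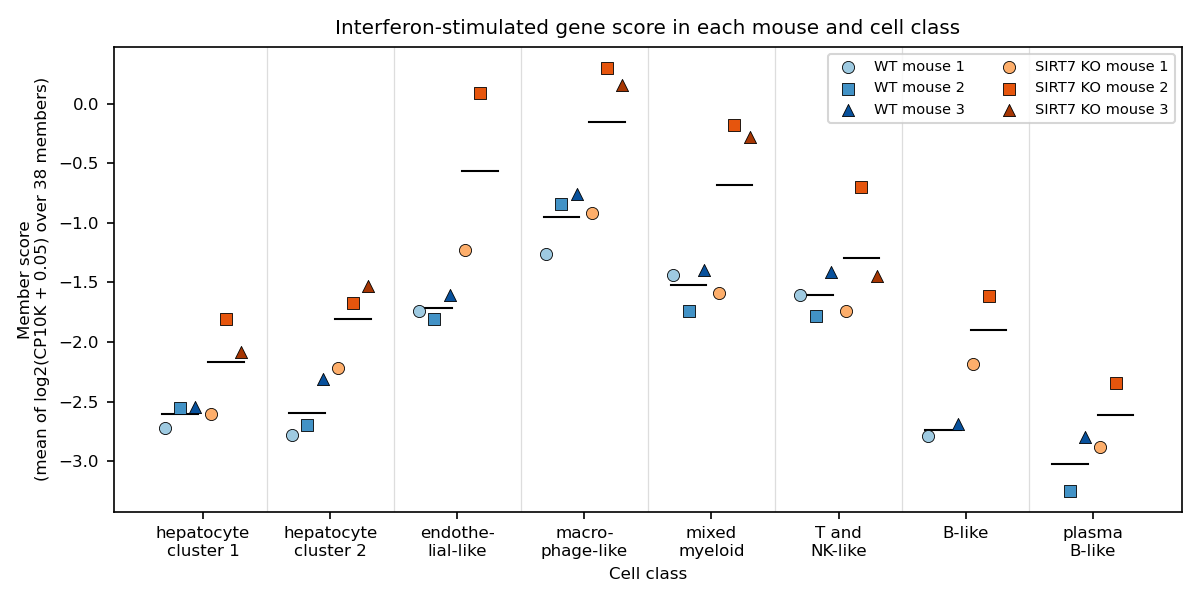
Score of the 38 members (mean of log2(CP10K + 0.05), vertical axis) in each mouse (points, with the symbol giving the mouse) and cell class (horizontal axis); bars mark the mean of each genotype. SIRT7 KO mouse 2 lies above every WT mouse in 8 of 8 classes, while SIRT7 KO mouse 1 lies within the WT range in 5 of 8.

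The SIRT7 KO mice took similar places in most classes. SIRT7 KO mouse 2 was above every WT mouse in 8 of 8 classes, mouse 3 in 4 of 5 and mouse 1 in 3 of 8. When the cells were divided more finely, SIRT7 KO mouse 2 scored above mouse 1 in 18 of 18 clusters that held at least 20 cells of both, by 0.42 to 1.64 with a median of 1.17. SIRT7 KO mouse 2 also passed every WT mouse in 15 of 15 fine clusters in which at least 1 WT mouse could be scored, and mouse 3 in 7 of 7. SIRT7 KO mouse 1 was above every WT mouse in 8 of 16, within the WT values in 3 and below every WT mouse in 5. Many of these clusters had only 1 WT mouse to compare with, and a score there could only lie above or below that mouse. In a fine cluster led by the plasmacytoid dendritic cell genes Siglech, Klk1 and Cox6a2, the score was -2.07 in SIRT7 KO mouse 1 and -0.52 in mouse 2, yet Bst2, which these cells carry on their surface, was at 33.5 and 32.9 CP10K.

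Gene by gene, 34 of 38 members in macrophage-like cells were higher in SIRT7 KO mouse 2 than in every WT mouse (89.5%, against 19.2% of all genes tested in that class). For SIRT7 KO mouse 3 it was 30 of 38 (78.9%, against 20.9%), and for mouse 1 it was 6 of 38 (15.8%, against 15.2%), with 8 of 38 below every WT mouse. In the mixed myeloid cluster the counts were 6, 35 and 29 of 38 for mice 1 to 3 (15.8%, 92.1% and 76.3%, against 16.4%, 22.2% and 23.8% of all genes), and 10 of 38 were below every WT mouse in mouse 1. In T and NK-like cells they were 3, 29 and 13 of 36 (8.33%, 80.6% and 36.1%, against 17.97%, 26.5% and 29.6%), with 12 below every WT mouse in mouse 1 and 8 in mouse 3. Endothelial-like cells had 16 of 36 in SIRT7 KO mouse 1 (44.4%, against 21.04% of all genes) and 33 of 36 in mouse 2 (91.7%, against 30.0%). In hepatocyte cluster 1 the counts were 6, 16 and 13 of 30 (20%, 53.3% and 43.3%, against 19.7%, 27.5% and 24.9% of all genes). In hepatocyte cluster 2 they were 10, 16 and 20 of 29 (34.5%, 55.2% and 68.97%, against 32.3%, 35.98% and 34.6%).

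**Figure D2:**
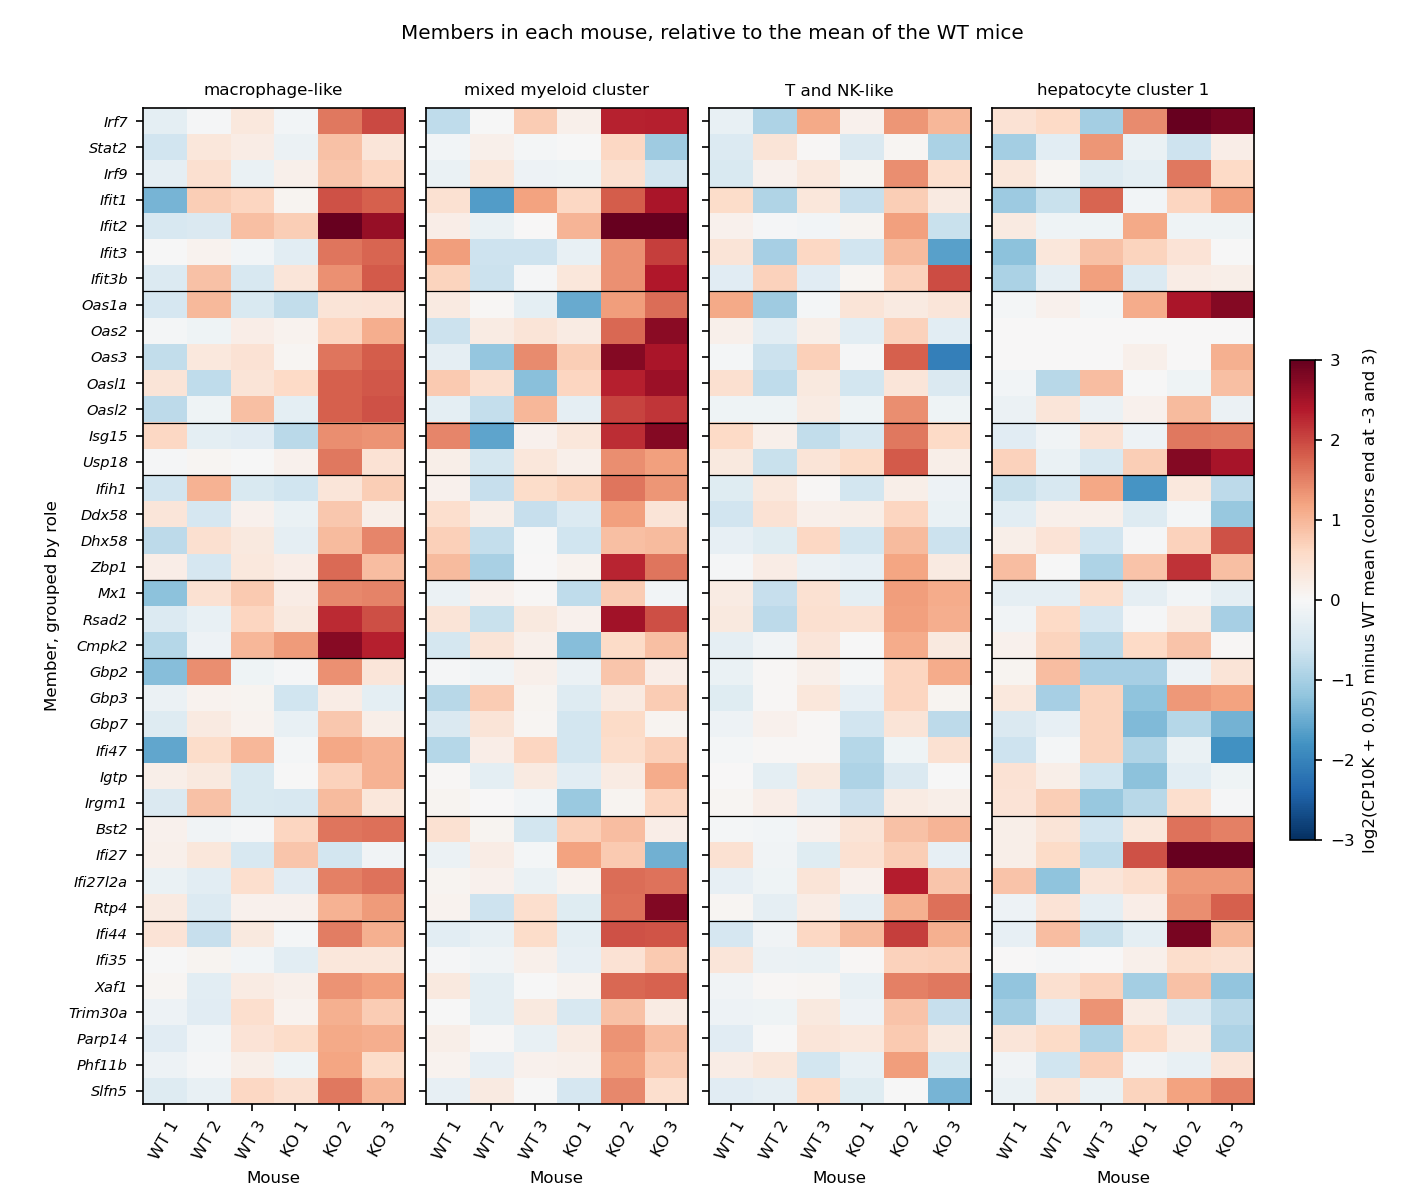
Level of each of the 38 members (rows) in each mouse (columns) relative to the WT mean of the class, on the scale of log2(CP10K + 0.05), in 4 classes; the colors end at -3 and 3. In macrophage-like cells 34 members in SIRT7 KO mouse 2 and 30 in mouse 3 exceed every WT mouse, against 6 in mouse 1.

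A member entered the comparison of a class where its mean over the mice was at least 0.05 CP10K, which 38 of 38 did in macrophage-like cells and in the mixed myeloid cluster, 36 in endothelial-like and in T and NK-like cells, 30 in hepatocyte cluster 1 and in B-like cells, 29 in hepatocyte cluster 2 and 22 in plasma B-like cells. The filter can pass a member through the genotype where it is high, so these counts carry no weight of their own. The log2 difference (SIRT7 KO minus WT) was above 0 for 37 of 38 members in macrophage-like cells (47.2% of all genes), 34 of 38 in the mixed myeloid cluster (45.6%), 35 of 36 in endothelial-like cells (47%) and 25 of 36 in T and NK-like cells (44.7%). It was above 0 for 18 of 30 in hepatocyte cluster 1 (45%), 23 of 29 in hepatocyte cluster 2 (60.8%), 24 of 30 in B-like cells (52.9%) and 19 of 22 in plasma B-like cells (64.8%). The median log2 difference was 0.77 over the members in macrophage-like cells and -0.03 over all 9945 genes of that class. In endothelial-like cells it was 1.01 over the members and -0.05 over all genes, in the mixed myeloid cluster 0.79 and -0.05, in hepatocyte cluster 2 0.95 and 0.20, and in hepatocyte cluster 1 0.41 and -0.09. In T and NK-like cells it was 0.33 and -0.06, in B-like cells 1.37 and 0.08, and in plasma B-like cells 0.60 and 0.22.

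Members that were higher in every SIRT7 KO mouse than in every WT mouse were few in the classes with all 6 mice. They numbered 5 of 38 in macrophage-like cells (Oasl1, Usp18, Cmpk2, Bst2 and Parp14), where 7.24% of all genes did not overlap in that direction. They numbered 4 of 38 in the mixed myeloid cluster (Ifit2, Ifih1, Parp14 and Phf11b; 3.94% of all genes) and 2 of 36 in T and NK-like cells (Bst2 and Ifi44; 5.21%). In hepatocyte cluster 1 they were 5 of 30 (Irf7, Oas1a, Usp18, Ifi27 and Ifi35; 7.96%), and in hepatocyte cluster 2 they were 9 of 29 (12.9%). With fewer mice, 14 of 36 members were so separated in endothelial-like cells (9.63% of all genes), 10 of 30 in B-like cells (15.7%) and 7 of 22 in plasma B-like cells (25.9%). The other direction held 1 member in hepatocyte cluster 1, Gbp7, and a pair in B-like cells, Oasl1 and Ifih1 (8.93% and 12.6% of all genes). It held none in hepatocyte cluster 2 (4.07%), endothelial-like cells (13%), macrophage-like cells (9.86%), the mixed myeloid cluster (7.02%), T and NK-like cells (6.32%) or plasma B-like cells (10.8%).

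With limma p-values adjusted by Benjamini-Hochberg across the genes tested in a class, an adjusted p under 0.05 went to Ifi27 in hepatocyte cluster 1 (0.128% of all genes called higher), Rsad2 in hepatocyte cluster 2 (0.0973%), and Irf7 and Ifi44 in endothelial-like cells (0.0844%). No member was called in the other 5 classes, where 0.131% of all genes were called higher in macrophage-like cells, 0.0103% in the mixed myeloid cluster, 0.05% in T and NK-like cells, 0% in B-like cells and 0.052% in plasma B-like cells. By voom on the summed UMIs none was called in those 5 classes either. Voom also called no member in endothelial-like cells (0.0281% of all genes called in either direction). In hepatocyte cluster 2 it called Irf7 and Ifi27l2a and not Rsad2 (0.973%), and in hepatocyte cluster 1 it called Ifi27 (5.63%). Without SIRT7 KO mouse 1, 8 members were called higher in macrophage-like cells, 11 in the mixed myeloid cluster and 1, Xaf1, in T and NK-like cells, where 0.965%, 1.44% and 1.38% of all genes were called in either direction. In plasma B-like cells 5 were called higher without WT mouse 3 (12.1% of all genes called) and 1, Ifi27l2a, without WT mouse 2 (0.264%), each with 1 WT mouse left in the fit. The unadjusted p was under 0.05 for 7 members higher in hepatocyte cluster 1 (3.95% of all genes), 12 in hepatocyte cluster 2 (7.47%) and 13 in endothelial-like cells (2.72%), for 14 in macrophage-like cells (3.9% of all genes), 12 in the mixed myeloid cluster (1.96%), 3 in T and NK-like cells (2.87%), 4 in B-like cells (1.89%) and 2 in plasma B-like cells (4.63%). Irf7 and Ifi44 lost the call without WT mouse 1 or SIRT7 KO mouse 2, and Rsad2 without any 1 of the 3 WT mice or SIRT7 KO mouse 2. Irf7, Ifi44 and Rsad2 also lost the call with a pseudocount of 0.01, with a filter at 0.2 CP10K and after thinning to 1000 UMIs per cell. Rsad2 further lost it with no filter, with the mean of ln values and with median centring. The members were chosen in this contrast, so nothing is read from these counts.

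Irf7, the transcription factor that raises interferon production in a positive loop, differed in both leukocytes and hepatocytes. In macrophage-like cells it was at 2.03, 2.45 and 3.12 CP10K in WT and at 2.36, 7.51 and 10.1 CP10K in SIRT7 KO mice, a log2 difference of 1.16 ± 0.48 (SE, n = 3 and 3). SIRT7 KO mouse 1 lay within the WT values and the other SIRT7 KO mice well above them. In hepatocyte cluster 1 it was at 0.0857, 0.103 and 0 CP10K in WT and at 0.221, 1.36 and 0.688 CP10K in SIRT7 KO mice (2.70 ± 0.63). In endothelial-like cells it was at 0.110, 0.137 and 0.397 CP10K against 0.799 and 2.97 CP10K (2.75 ± 0.58, n = 3 and 2). These last 2 sets of values did not overlap. Mixed myeloid cells had 0.381, 0.676 and 1.19 CP10K against 0.756, 3.57 and 3.64 CP10K, in T and NK-like cells at 0.297, 0.163 and 0.841 against 0.391, 0.969 and 0.751, and in hepatocyte cluster 2 at 0.0749, 0.196 and 0.513 against 0.349, 0.839 and 0.651.

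Stat2 and Irf9 work in the complex that binds the response element, and each had log2 differences of both signs over the classes. In hepatocyte cluster 2 Stat2 was at 0.617, 1.56 and 1.98 CP10K in WT and at 3.26, 2.25 and 2.47 CP10K in SIRT7 KO mice, without overlap (log2 difference 1.05 ± 0.42). In T and NK-like cells and in the mixed myeloid cluster its log2 difference was -0.44 ± 0.42 and -0.16 ± 0.39, neither far beyond its standard error. Irf9 stood at 0.163 and 0.358 CP10K in WT and at 0.377 and 1.70 CP10K in SIRT7 KO B-like cells (1.55 ± 1.09, n = 2 and 2). These levels rested on 1 and 2 UMIs against 3 and 7. In endothelial-like cells, picked after the values were seen, Irf9 differed by 2.20 ± 0.57 without overlap (n = 3 and 2). It differed by 0.63 ± 0.52 and 0.57 ± 0.52 in hepatocyte clusters 1 and 2 and by 0.54 ± 0.29 in macrophage-like cells. In T and NK-like cells it differed by 0.65 ± 0.38 and in the mixed myeloid cluster by -0.07 ± 0.33.

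The IFIT proteins bind foreign RNA and block its translation. Ifit3 was at 0.253, 0.275 and 0.236 CP10K in WT macrophage-like cells and at 0.196, 0.878 and 0.971 CP10K in SIRT7 KO ones (log2 difference 1.02 ± 0.48). Ifit2, picked after its values were seen, was at 0.0464, 0.0506 and 0.203 CP10K against 0.174, 1.08 and 0.773 CP10K in the same cells (2.13 ± 0.59). Both showed SIRT7 KO mice 2 and 3 above every WT mouse, while mouse 1 was the lowest of the 6 mice for Ifit3 and within the WT values for Ifit2. Mixed myeloid cells had Ifit3 at 0.550, 0.114 and 0.116 CP10K against 0.168, 0.603 and 1.02 CP10K. In endothelial-like cells it was at 0, 0.0814 and 0.0287 CP10K against 0.169 and 0.822 CP10K, and in T and NK-like cells its log2 difference was -0.41 ± 0.66. Ifit1 and Ifit3b had log2 differences of 1.26 ± 0.62 and 1.19 ± 0.54 in macrophage-like cells. As a group the IFIT genes differed by 1.40 in the score of macrophage-like cells and by 0.31 in hepatocyte cluster 1.

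The oligoadenylate synthetases Oas1a, Oas2 and Oas3 sense double-stranded RNA and make the signal that activates RNase L, and Oasl1 and Oasl2 are their relatives. Oasl1 was at 0.412, 0.158 and 0.416 CP10K in WT and at 0.491, 1.17 and 1.24 CP10K in SIRT7 KO macrophage-like cells, without overlap (log2 difference 1.42 ± 0.41). Oas3 and Oasl2 differed there by 1.17 ± 0.46 and 1.13 ± 0.60, Oas2 by 0.61 ± 0.31 and Oas1a by 0.02 ± 0.46. The family was low in the hepatocyte clusters, where Oas1a and Oasl1 passed the filter in cluster 1 and none of the 5 genes did in cluster 2. Oas1a in cluster 1, picked after its values were seen, was at 0, 0.00692 and 0 CP10K in WT and at 0.0638, 0.236 and 0.302 CP10K in SIRT7 KO mice (2.11 ± 0.64), without overlap and from 0 to 7 UMIs per mouse. Oasl1 differed there by 0.26 ± 0.64, and Oas2 was at 0 in all 6 mice.

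Isg15 is a ubiquitin-like protein, and Usp18 is the protease that removes it and also restrains the receptor. Each had log2 differences above 0 in each of the 7 classes where both were tested. In macrophage-like cells Isg15 was at 0.794, 0.399 and 0.379 CP10K in WT and at 0.261, 1.39 and 1.33 CP10K in SIRT7 KO mice (log2 difference 0.64 ± 0.55). SIRT7 KO mouse 1 was the lowest of the 6 mice and mice 2 and 3 the highest. In the mixed myeloid cluster it was at 1.15, 0.0944 and 0.422 CP10K against 0.499, 1.96 and 2.90 CP10K, in hepatocyte cluster 1 at 0.315, 0.375 and 0.576 against 0.367, 1.33 and 1.30, and in T and NK-like cells at 0.810, 0.580 and 0.294 against 0.359, 1.66 and 0.810. Usp18 in hepatocyte cluster 1 was at 0.0636, 0.0109 and 0 CP10K against 0.0668, 0.427 and 0.342 CP10K (1.99 ± 0.67). The genotypes did not overlap, but WT mouse 1 and SIRT7 KO mouse 1 were nearly tied, with 4 UMIs each.

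The sensors Ifih1, Ddx58 and Dhx58 recognize RNA in the cytosol, and Zbp1 binds nucleic acids in the Z form. Their joint score differed by 0.52 in macrophage-like cells and by 0.22 in hepatocyte cluster 1. Ifih1 separated the genotypes in the mixed myeloid cluster with a log2 difference of 1.19 ± 0.42. The gap was narrow, with WT mouse 3 at 0.230 CP10K and SIRT7 KO mouse 1 at 0.250 CP10K. In hepatocyte cluster 1 Ifih1 differed by -0.74 ± 0.61. Mx1 is a dynamin-like antiviral GTPase, Rsad2 (viperin) a radical SAM enzyme that makes a chain-ending nucleotide, and Cmpk2 the mitochondrial kinase encoded beside it. In macrophage-like cells Cmpk2 and Rsad2 differed by 2.11 ± 0.55 and 1.49 ± 0.47. Rsad2 in hepatocyte cluster 2, picked after its values were seen, was at 0.0374, 0 and 0 CP10K in WT and at 0.522, 1.10 and 0.367 CP10K in SIRT7 KO mice (3.43 ± 0.69). The genotypes did not overlap, but the level rested on 5 UMIs in WT mouse 1 and on 20, 5 and 47 UMIs in the SIRT7 KO mice, and of the WT mice 2 and 3 none was counted.

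The guanylate-binding proteins Gbp2, Gbp3 and Gbp7 and the immunity-related GTPases Ifi47, Igtp and Irgm1 attack the vacuoles of intracellular microbes and respond strongly to interferon-γ. This role group had the smallest joint score difference of the 9 in the macrophage-like, mixed myeloid, T and NK-like and both hepatocyte classes. Its joint score differed by 0.36 in macrophage-like cells, 0.16 in the mixed myeloid cluster and -0.05 in T and NK-like cells, and by -0.44 and -0.08 in hepatocyte clusters 1 and 2, although it differed by 1.04 in endothelial-like cells. Gbp7, picked after its values were seen, was at 0.207, 0.245 and 0.505 CP10K in WT and at 0.0899, 0.142 and 0.0813 CP10K in SIRT7 KO hepatocyte cluster 1, lower without overlap (-1.19 ± 0.54). Over the 32 members other than these GTPases, the score differed by 0.88 in macrophage-like cells, 0.97 in the mixed myeloid cluster, 0.60 in hepatocyte cluster 1 and 0.38 in T and NK-like cells.

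The joint score of the 4 membrane and mitochondrial members did not overlap between the genotypes in any class except hepatocyte cluster 2. Bst2 (tetherin) holds budding viruses at the cell surface. In macrophage-like cells it was at 3.12, 2.65 and 2.79 CP10K in WT and at 4.51, 8.76 and 9.05 CP10K in SIRT7 KO mice, without overlap (log2 difference 1.30 ± 0.25). In T and NK-like cells it was at 1.43, 1.40 and 1.63 CP10K against 1.96, 2.76 and 3.08 CP10K (0.77 ± 0.25), again without overlap. In both classes even SIRT7 KO mouse 1 exceeded the WT mice. In hepatocyte cluster 1 Bst2 was at 2.37, 2.76 and 1.39 CP10K against 2.65, 6.55 and 6.10 CP10K, and in hepatocyte cluster 2 at 2.15, 1.43 and 1.02 against 1.75, 1.64 and 4.70. In the mixed myeloid cluster it was at 6.38, 4.88 and 3.12 against 7.59, 8.72 and 5.28, and in endothelial-like cells at 6.38, 7.57 and 5.97 against 6.83 and 13.8. In plasma B-like cells it was at 1.62 and 2.08 CP10K against 2.59 and 4.23 CP10K (0.84 ± 0.34).

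Ifi27 and Ifi27l2a encode small hydrophobic proteins of the mitochondrial or nuclear membrane, and their values went to different cells. Ifi27 was at 1.33, 1.76 and 0.666 CP10K in WT and at 4.52, 10.1 and 12.3 CP10K in SIRT7 KO hepatocyte cluster 1, without overlap (log2 difference 2.77 ± 0.41). In hepatocyte cluster 2 it was at 1.35, 1.22 and 1.23 CP10K against 1.56, 4.13 and 5.65 CP10K (1.36 ± 0.42). In macrophage-like cells it was at 0.853, 0.966 and 0.527 CP10K against 1.38, 0.504 and 0.706 CP10K, a difference of 0.06 ± 0.35 that changed sign when single mice were left out. In the mixed myeloid cluster Ifi27 was at 0.391, 0.528 and 0.426 CP10K against 1.09, 0.804 and 0.133 CP10K, with SIRT7 KO mice 1 and 2 above the WT values and mouse 3 below them. The T and NK-like cells had Ifi27 at 2.04, 1.36 and 1.13 CP10K against 2.03, 2.47 and 1.23 CP10K, and only SIRT7 KO mouse 2 left the WT range. In B-like cells it was at 1.01 and 0.831 CP10K against 2.49 and 3.05 CP10K (1.54 ± 0.69).

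Ifi27l2a was high in leukocytes. In plasma B-like cells it was at 1.30 and 2.83 CP10K in WT and at 5.43 and 14.6 CP10K in SIRT7 KO mice (log2 difference 2.18 ± 0.49), without overlap. In endothelial-like cells it was at 0.268, 0.143 and 1.23 CP10K against 1.91 and 5.51 CP10K (2.95 ± 0.98). In hepatocyte cluster 2 it was at 0.0459, 0.103 and 0.570 CP10K against 0.635, 3.72 and 0.638 CP10K (2.54 ± 0.80). The last of these did not overlap, but SIRT7 KO mice 1 and 3 were close to WT mouse 3. In macrophage-like cells, a class added after the values were seen, it was at 9.16, 8.50 and 14.9 CP10K against 8.30, 30.3 and 32.6 CP10K, so that it made up 24.9% to 37.3% of the members' summed CP10K there. Without Ifi27l2a and Bst2 the members still summed to 17.5, 21.2 and 24.0 CP10K in WT and to 20.5, 48.6 and 45.9 CP10K in SIRT7 KO macrophage-like cells. Rtp4, a chaperone of receptors on their way to the membrane, differed by 0.82 ± 0.31 in macrophage-like cells.

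**Figure D3:**
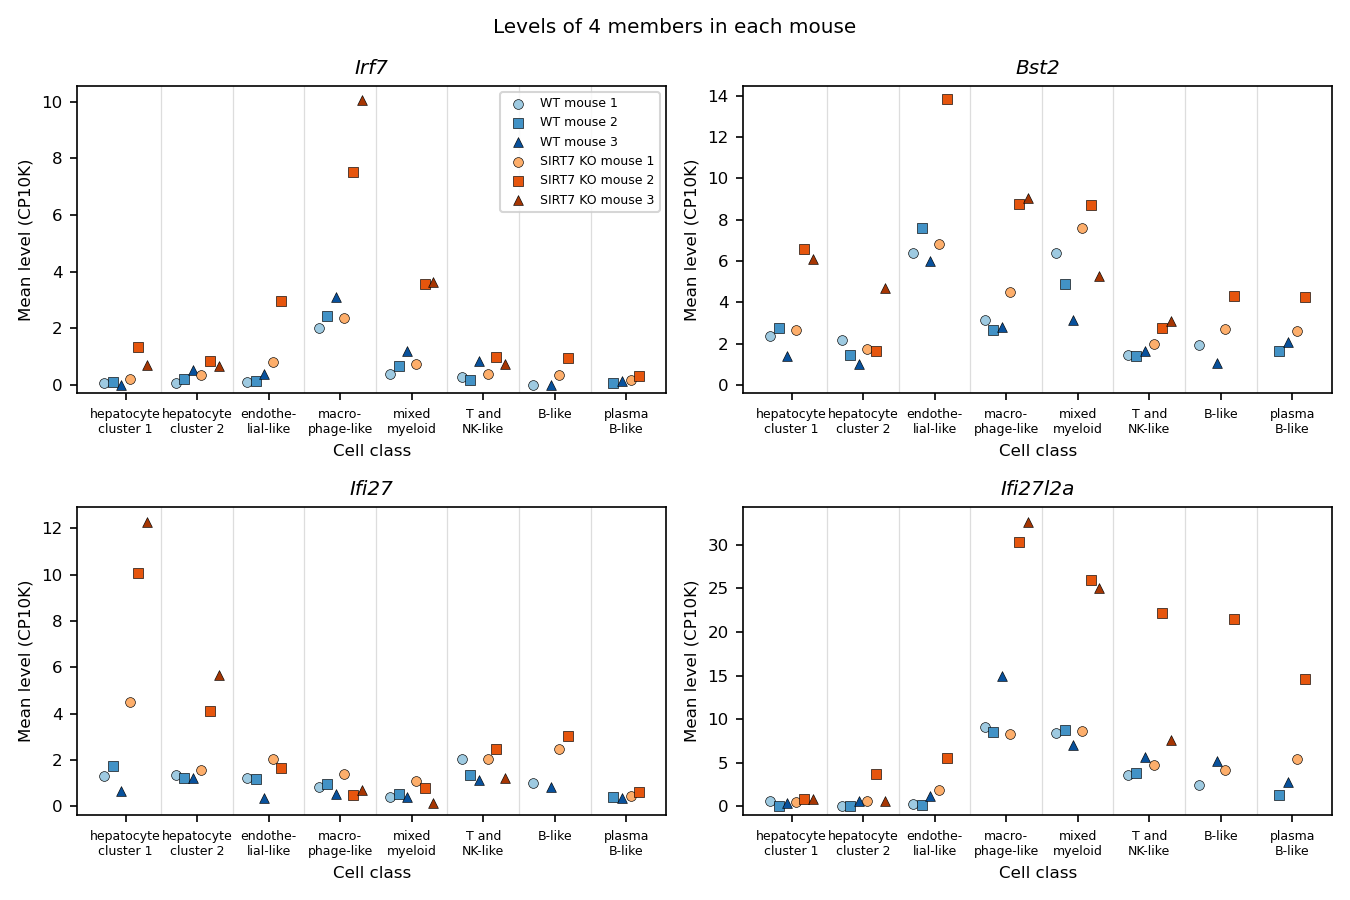
Mean level in CP10K (vertical axis, linear) of Irf7, Bst2, Ifi27 and Ifi27l2a in each mouse (symbols) and cell class (horizontal axis). Ifi27 is highest in SIRT7 KO mice 2 and 3 in hepatocyte cluster 1, at 10.1 and 12.3 CP10K, while Ifi27l2a is highest in their macrophage-like cells, at 30.3 and 32.6 CP10K.

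The other members were Ifi44, a cytoplasmic GTP-binding protein, Ifi35, a leucine-zipper protein, Xaf1, a partner of the apoptosis inhibitor Xiap, Trim30a, a ubiquitin ligase, Parp14, an ADP-ribosyltransferase, Phf11b, a PHD finger protein, and Slfn5, a schlafen. Ifi44 was at 0.307, 0.204 and 0.536 CP10K in WT and at 1.16 and 3.19 CP10K in SIRT7 KO endothelial-like cells (log2 difference 2.40 ± 0.49). Parp14 was at 0.646, 0.787 and 1.12 CP10K against 1.24, 1.87 and 1.82 CP10K in macrophage-like cells (0.92 ± 0.26). Parp14 in the mixed myeloid cluster was at 0.572, 0.519 and 0.428 CP10K against 0.606, 1.37 and 1.01 CP10K (0.85 ± 0.32). None of these 3 sets overlapped. Phf11b was at 0.817, 0.639 and 0.843 CP10K against 0.849, 1.88 and 1.35 CP10K in that cluster (0.73 ± 0.30), with SIRT7 KO mouse 1 barely above WT mouse 3. In B-like cells Parp14 was at 0.129 and 0 CP10K against 0.463 and 1.61 CP10K. Ifi35 was at 0.587, 0.560 and 0.583 CP10K against 0.646, 0.848 and 0.809 CP10K in hepatocyte cluster 1, a separation of only 0.38 ± 0.36 on the log2 scale. In macrophage-like cells Slfn5, Xaf1 and Trim30a differed by 1.02 ± 0.32, 0.91 ± 0.33 and 0.65 ± 0.28.

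**Figure D4:**
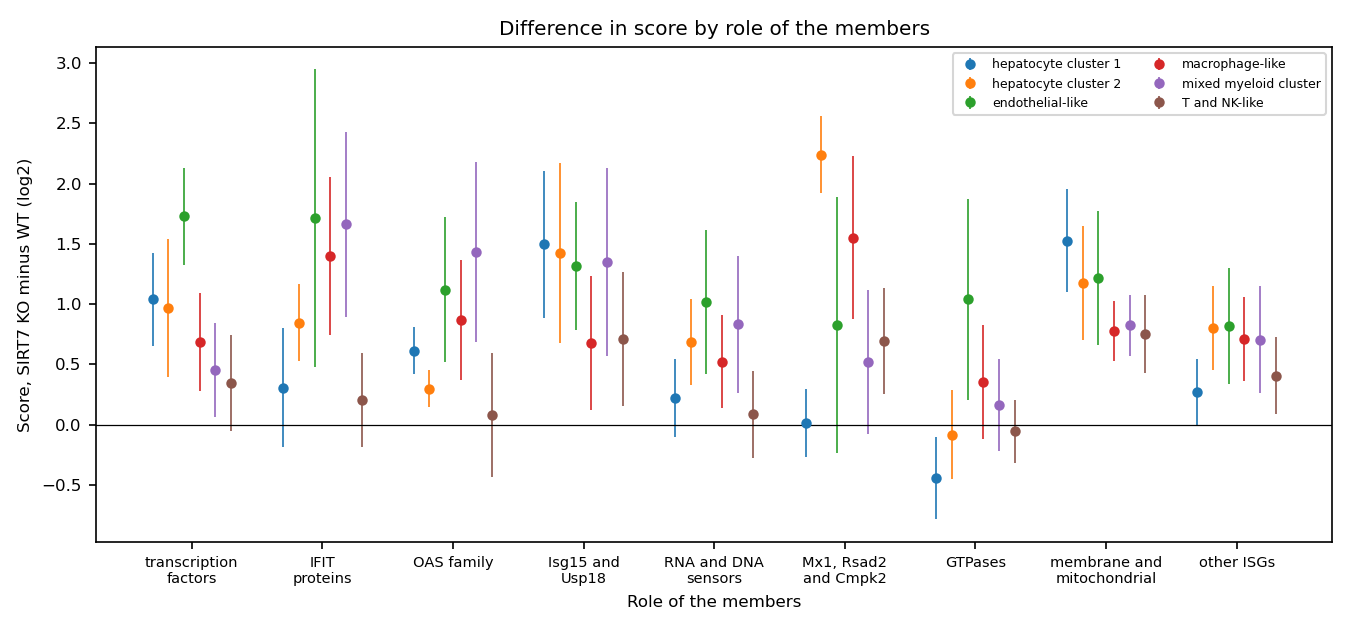
Difference of the score (SIRT7 KO minus WT, log2 scale, vertical axis) for each role group of members (horizontal axis) in 6 classes. Points are the difference of the genotype means and bars the SE of the difference. The GTPases stay at 0.36 or below in 5 of the 6 classes, with 1.04 in endothelial-like cells, while the membrane and mitochondrial group lies between 0.75 and 1.52 in all 6.

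The members' RNA was also counted cell by cell after each cell had been thinned to 1000 UMIs, which left out 1751 shallower cells. In macrophage-like cells 24.0%, 21.95% and 38.3% of the WT cells and 25.8%, 86.3% and 85.0% of the SIRT7 KO cells held at least 5 member UMIs. Before thinning the shares were 74.5%, 69.6% and 75.7% against 67.8%, 97.2% and 98.8%, at median depths of 3897, 2554 and 2250 against 2100.5, 3263 and 6493.5 UMIs. Most macrophage-like cells of SIRT7 KO mice 2 and 3, and not a small group of them, were thus past this mark. The 95% Wilson intervals, for counting error only, were 83.3% to 88.8% and 75.6% to 91.2% in those mice and reached at most 44.8% in the others. In T and NK-like cells the thinned share was 8.33%, 8.50% and 10.7% against 8.43%, 42.3% and 12.9% (unthinned 50.5%, 45.5% and 24.5% against 13.6%, 68.4% and 74.2%). In hepatocyte cluster 1 it was 0.262%, 0.324% and 3.33% against 0.850%, 15.98% and 27.5% (unthinned 1.46%, 9.002% and 7.14% against 4.41%, 32.2% and 60%). Low shares were also found in plasma B-like cells, with 0% and 1.54% against 2.31% and 14.8% (unthinned 60% and 29.2% against 23.8% and 69.6%), where the 0 of 20 cells allows a share of up to 15%. Of the members' summed CP10K, Ifi27l2a held 18.4%, 20.6% and 24.6% in WT and 25.1%, 44.2% and 27.7% in SIRT7 KO T and NK-like cells. The largest member held 29.3% and 32.1% against 47.4% and 57.7% in plasma B-like cells. In hepatocyte cluster 1 it held 27.8%, 27.7% and 13.9% (Bst2) against 38.3%, 36.1% and 44.7% (Ifi27). Cells were not counted without these members.

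**Figure D5:**
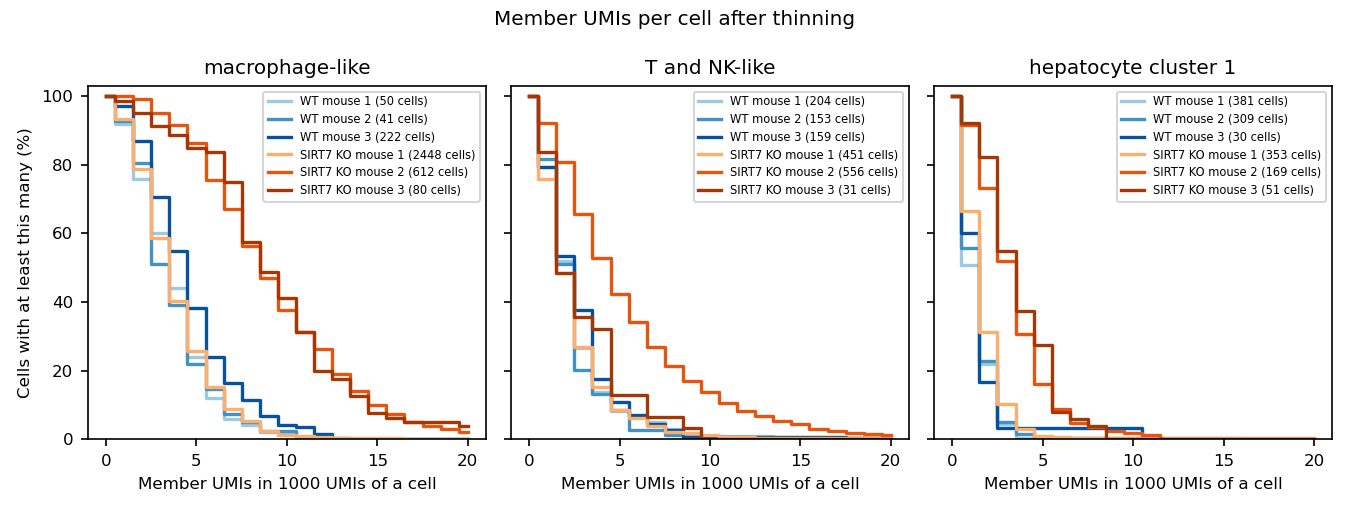
Percent of cells (vertical axis) with at least the number of member UMIs on the horizontal axis, in cells thinned to 1000 UMIs, for each mouse (lines) in macrophage-like, T and NK-like and hepatocyte cluster 1 cells. At 5 member UMIs the macrophage-like curves stand at 86.3% and 85.0% in SIRT7 KO mice 2 and 3 and at 21.95% to 38.3% in the other 4 mice.

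RNA of other cells varied beside these results. In the hepatocyte clusters, 8 leukocyte genes (Ptprc, Tyrobp, Cd74, Lyz2, Coro1a, Laptm5, Srgn and Fcer1g) summed to 1.58 to 15.2 CP10K in WT and 2.499 to 7.29 CP10K in SIRT7 KO mice in cluster 1, all 8 above 0 in every mouse. In cluster 2 they summed to 0.523, 0.604 and 9.23 CP10K in WT and to 13.4, 12.2 and 2.21 CP10K in SIRT7 KO mice, with 6 of 8 above 0 in every mouse. Leaving out the 384 of 2953 hepatocyte-cluster cells with over 10 CP10K of these genes, a step added after the data were seen, Ifi27 in cluster 1 was at 1.30, 1.77 and 0.418 CP10K in WT and at 4.61, 10.0 and 12.5 CP10K in SIRT7 KO mice, without overlap, though limma's adjusted p then missed 0.05. Rsad2 in cluster 2 was then at 0.0377, 0 and 0 CP10K against 0.754, 1.18 and 0.377 CP10K, and the scores of cluster 2 were -2.79, -2.69 and -2.46 against -2.21, -1.71 and -1.58, still without overlap. In the other direction, hepatocyte genes summed to 133, 105 and 51.7 CP10K in WT and to 56.6, 12.6 and 62.0 CP10K in SIRT7 KO macrophage-like cells, the lowest in SIRT7 KO mouse 2. The part of this RNA in the leukocyte results was not tested.

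The genes of the pathway outside the members, 134 of 161 listed, had smaller median differences than the members in each of the 8 classes. The members were chosen in this contrast and the pathway lists were not cut by it, so nothing is read from that comparison. Their median log2 difference was 0.38 in macrophage-like cells (116 tested), 0.45 in endothelial-like cells (117), 0.52 in hepatocyte cluster 2 (97) and 0.23 in the mixed myeloid cluster (122). It was -0.21 in hepatocyte cluster 1 (87), 0.00 in T and NK-like cells (121), 0.31 in B-like cells (112) and 0.31 in plasma B-like cells (93). By limma (Benjamini-Hochberg, across the genes tested in a class) 1 of 97 was called higher in hepatocyte cluster 2, and no gene passed an adjusted p of 0.05 in either direction in the other 7 classes. Of all genes, 0.302% and 0.146% were called lower in hepatocyte clusters 1 and 2, 0.225% in endothelial-like, 0.0704% in macrophage-like, 0.0205% in mixed myeloid, 0.07% in T and NK-like, 0% in B-like and 0.026% in plasma B-like cells. Taking an unadjusted p below 0.05, 23 of 116 were higher and none lower in macrophage-like cells (3.9% and 6.71% of all genes), and 13 of 97 were higher and none lower in hepatocyte cluster 2 (7.47% and 2.69%). The numbers higher and lower were 15 and 2 in endothelial-like cells (2.72% and 4.88% of all genes), 12 and 2 in the mixed myeloid cluster (1.96% and 4.1%) and 2 and 2 in hepatocyte cluster 1 (3.95% and 6.62%). They were 3 and 1 in T and NK-like cells (2.87% and 4.28%), 4 and 0 in B-like cells (1.89% and 1.65%) and 6 and 1 in plasma B-like cells (4.63% and 1.9%).

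The gene past the threshold was Tor1b, an ATPase of the endoplasmic reticulum. In hepatocyte cluster 2 it was at 0.287, 0.225 and 0.108 CP10K in WT and at 2.25, 2.40 and 1.24 CP10K in SIRT7 KO mice, and all SIRT7 KO mice lay far above the WT mice. Its log2 difference was 2.99 ± 0.45 (SE, n = 3 and 3; limma adjusted p = 0.00203), and it stayed past the threshold in 20 of 20 alternatives. Some of these, such as a minimum of 10 cells per mouse, repeated the main fit in this class.

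Of the ligands, only Ifng had a column, and the type I and type III interferons are not analysed here. Ifng was at 0.181, 0.243 and 0.182 CP10K in WT and at 0.299, 0.332 and 0.727 CP10K in SIRT7 KO T and NK-like cells (log2 difference 0.91 ± 0.40; limma adjusted p = 0.688). The groups did not overlap, but the difference did not pass the test. Ifnar1 was at 0.288, 0.0955 and 0.528 CP10K against 0.521, 0.562 and 0.483 CP10K in macrophage-like cells, and its smallest adjusted p by limma over 7 classes was 0.498. For Ifnar2, Ifngr1, Jak1, Tyk2 and Socs1, an inhibitor of the kinases, the smallest adjusted p by limma over the classes was 0.713, 0.581, 0.753, 0.588 and 0.814.

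Irf1, a transcription factor induced by interferon, was at 0.0540, 0.115 and 0.0772 CP10K in WT and at 0.188, 0.579 and 0.141 CP10K in SIRT7 KO cells of hepatocyte cluster 1 (log2 difference 1.23 ± 0.60; limma adjusted p = 0.477). Its log2 difference was above 0 in 6 of 8 classes, and it passed the test in none of them (smallest limma adjusted p = 0.409).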

How the data were processed

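Single-cell libraries of liver were read with Cell Ranger 6.0.0 on mm10, per the submitters' processing notes. The deposited values are natural log values, ln(CP10K + 1), of 16623 genes in 11610 cells, scaled to 10000 UMIs per cell by the authors, who had removed cells with few genes or a high mitochondrial share and genes seen in few cells, per the study's methods. From them CP10K and whole UMIs were recovered (100% of 12961041 values within 0.02 of a whole number). Cells were clustered with scanpy 1.11.5 (1000 variable genes, 3 of them members; neighbors balanced over the mice; Leiden resolution 0.35) and named from marker lists. For each mouse with at least 20 cells in a class, mean CP10K per gene was taken as log2(CP10K + 0.05), which understates the change of low genes. Genes whose mean over the mice reached 0.05 CP10K were fitted with limma 3.58.1 (R 4.3.3, trend and robust settings), genotype as the only term, Benjamini-Hochberg adjusted per class. Mice are the replicates, numbered by the labels, and the main fit did not pair them by number. The fit was tested on simulated data. The members, the pathway lists and the tests were chosen with earlier results of these data known. Values in each mouse are given for the 3 members with the largest change in each direction per class among those whose mean reached 0.5 CP10K without overlap of the genotypes, and for Irf7, Isg15, Ifit3, Bst2 and Ifi27; of the pathway, for genes past the threshold and for 8 signaling genes; 1 further gene of that rule is not reported here. Shares of cells and their floors cover counting error only. Alternatives were other pseudocounts, filters, scalings, clusterings, a UMI-based fit and leaving out each mouse. Doublets were not removed.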

Additional observations from a re-analysis of the deposited data

How the results depend on the processing

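The score difference (SIRT7 KO minus WT) stayed above 0 in all 102 values from the alternatives other than leaving out a mouse, and 89 of them moved by less than the spread between mice. Some of these values repeat the main score by construction. The alternative with no filter does so in every class, and leaving out leukocyte-rich hepatocyte-cluster cells does so outside the hepatocyte clusters. The members were also chosen in this contrast, so nothing is read from these counts. With the mean of the deposited ln values it was 0.12 in B-like cells, 0.15 in endothelial-like cells, 0.10 and 0.093 in hepatocyte clusters 1 and 2, 0.29 in macrophage-like cells and 0.17 in the mixed myeloid cluster. A pseudocount of 0.01 gave 1.27 in B-like cells and 1.16 in hepatocyte cluster 2, and one of 0.5 gave 0.35 in B-like cells, 0.57 in endothelial-like cells and 0.30 in hepatocyte cluster 2. The filter at 0.2 CP10K gave 1.24 in B-like and 0.80 in plasma B-like cells. Leaving out each mouse gave 0.26 to 0.66 in hepatocyte cluster 1, 0.65 to 0.995 in cluster 2, 0.49 to 1.81 in endothelial-like, 0.57 to 1.18 in macrophage-like, 0.59 to 1.30 in mixed myeloid, 0.01 to 0.53 in T and NK-like, 0.56 to 1.12 in B-like and 0.14 to 0.68 in plasma B-like cells.

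The number of pathway genes past the threshold was 1 in hepatocyte cluster 2 and 0 elsewhere. In endothelial-like cells it rose to 2 with a pseudocount of 0.5 (0.582% of all genes called in either direction). It was 1 there with no filter (0.697%) or with the mean of ln values (0.46%). In hepatocyte cluster 1 it rose to 3 after thinning (Ifitm3 higher, B2m and H2-K1 lower), where 2.17% of all genes were called. By voom it was 2 in that cluster (both lower), where 5.63% of all genes were called. Leaving out each mouse gave 0 to 2 in hepatocyte cluster 1, 1 to 2 in cluster 2, 0 to 3 in macrophage-like, 0 to 6 in mixed myeloid and 0 to 1 in T and NK-like cells. In endothelial-like, B-like and plasma B-like cells some of these fits left 1 mouse of a genotype, and their counts are not given. The highest counts came without SIRT7 KO mouse 1, except in hepatocyte cluster 1, where 2 were called lower without SIRT7 KO mouse 3 (1.62% of all genes called in either direction). Without SIRT7 KO mouse 1 the share of all genes called was 0.448% in hepatocyte cluster 2 and 0.965% in macrophage-like cells. It was 1.44% in the mixed myeloid cluster and 1.38% in T and NK-like cells. Of the 7 in endothelial-like cells, 6 were higher and 1 lower, and calls under the other alternatives were higher. With the replicate number as a block, 3 were called in endothelial-like cells, 3 in macrophage-like cells and 1 in the mixed myeloid cluster. Of all genes, 1.34%, 1.39% and 0.667% were called there in either direction. The other classes that allowed a block kept their number of pathway genes. The block could not be fitted in B-like and plasma B-like cells. Deviations of mice of the same number correlated at -0.147 to 0.0870 and of other numbers at -0.256 to 0.221. Whether mice of the same number shared a batch was not tested.

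Of the members, Ifi27 in hepatocyte cluster 1 passed the threshold in 17 of 20 alternatives, also without any 1 of the 6 mice, and missed it with the replicate block, with the mean of ln values and without leukocyte-rich cells (an alternative added after seeing the data). With the block, 5 members were called higher in macrophage-like cells (1.39% of all genes called in either direction) and 2 in the mixed myeloid cluster (0.667%). Median centring called Bst2 in macrophage-like cells (0.221% of all genes). With no filter or after thinning, Ifi27l2a was called in plasma B-like cells (0.571% and 0.215% of all genes called in either direction). The threshold was passed by Irf7 and Ifi44 in endothelial-like cells in 14 of 20, and Rsad2 in hepatocyte cluster 2 in 9 of 20. Some alternatives, such as a minimum of 10 cells per mouse, left the cells of these classes unchanged and repeated the main fit. In endothelial-like cells so did leaving out SIRT7 KO mouse 3, which had not entered that class. These tallies therefore include repeats of the main fit. Among 703 alternative values of Irf7, Isg15, Ifit3, Bst2 and Ifi27, 15 had another sign than the value reported, none of them of Bst2. The cause of these changes was not tested. The alternative without doublets was not run, since the caller marked 46 of 11610 cells (0.396%).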
